A study of Brassica rapa subsp. pekinensis with 6 samples.

Results

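Of the 41019 Brassica rapa gene models (identifiers beginning with Bra) counted in flower buds of Chinese cabbage, 114 were abundant in fertile buds and kept between 10% and 33% of that level in sterile buds. These 114 genes were chosen on the measured values themselves. The mean over the fertile libraries had to reach 50 raw CPM (counts scaled to a library total of 1000000), and the sterile mean had to be above 0.1 and at most 0.33 of the fertile mean. The count table held 43354 identifiers in all, and 4458 Bra genes reached the fertile level of 50, so that 2.56% of the abundant Bra genes were members.

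The libraries were made from total RNA of whole buds, 3 from plants of the sterile genotype and 3 from plants of the fertile genotype. Both genotypes belong to the male sterile line AB01, in which sterility is inherited through multiple alleles, and both were raised in a greenhouse from vernalised material. The series design calls the replicates biological; the sources used here state neither bud stage, plant age nor the number of plants per library. Library totals ran from 31893913 to 33615379 counts in sterile buds and from 27637426 to 35564895 in fertile buds.

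Male sterile plants form flowers but no functional pollen. In a fertile bud the anther holds the developing pollen and the tapetum, the nurse layer that feeds it and supplies its coat, beside connective and wall tissue. The rest of the bud, with its sepals, petals and carpels, is present in both genotypes. In such bulk samples fewer cells of a type and less RNA per cell cannot be told apart. The tables pair no identifier with a gene name, and a RefSeq gene table of assembly CAAS_Brap_v3.01 matched 1 Bra identifier and none of the 114, so roles of single genes are not stated and the labelled tissue could not be checked against marker genes.

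Partly retained genes were few beside those lost and those kept. Among the 4458 abundant Bra genes, 432 (9.69%) had a sterile level at or below 0.1 of the fertile one, including 60 with no sterile count and 230 above 0 and up to 0.01. The limits from 0.1 to 0.33 held 114 genes, 66 of them up to 0.2 and 48 above it. Another 74 genes lay above 0.33 and up to 0.5, whereas 3762 (84.4%) lay above 0.5 and up to 2. Of these 3762, 711 had ratios up to 1 and 3051 had ratios above 1. On a log scale the members' stretch was thin beside the main peak, but not beside the stretches of similar width below it. Ratios above 0.03 and up to 0.1 were found for 84 genes, and ratios above 0.01 and up to 0.03 for 58. The class at or below 0.1 reaches down to 0, so its 432 genes span a far wider range of ratios than the members.

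**Figure D1:**
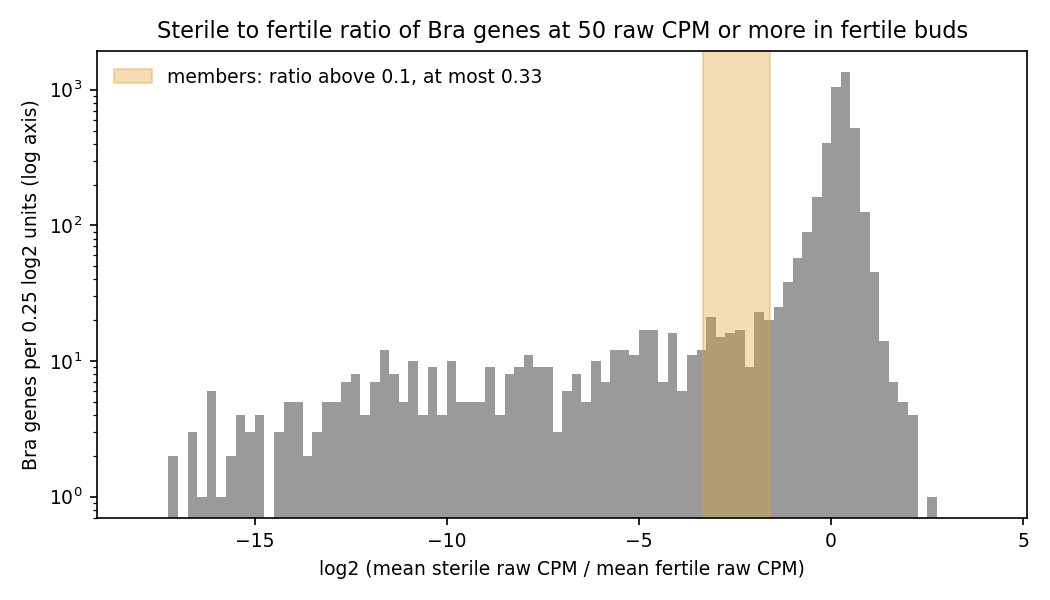
Number of Bra genes (vertical axis, log scale) by the log2 ratio of mean sterile to mean fertile raw CPM, in steps of 0.25, for abundant Bra genes with at least 1 sterile count; the 60 genes without one are not drawn. The shaded stretch marks the limits of 0.1 and 0.33 that hold the 114 members. It lies between the main peak, most of which is above a ratio of 1, and the long tail of genes that were nearly lost.

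The share of partly retained genes lay between 1.51% and 3.86% over the classes of fertile abundance, without a steady trend. The share of nearly lost genes was higher from 100 raw CPM up. Genes with ratios above 0.1 and up to 0.33 made up 2.46% of the 2639 Bra genes at 50 to 100 raw CPM in fertile buds, 2.52% of the 1231 genes at 100 to 200, 3.86% of the 389 genes at 200 to 400 and 1.51% of the 199 genes at 400 or more. Below the members' limit the same ratios were found for 2.02% of 4712 genes at 25 to 50 raw CPM, 2.63% of 7236 genes at 10 to 25 and 3.57% of 4477 genes at 5 to 10. Ratios of 0.1 or less were found for 6.06% of genes at 50 to 100 raw CPM, 10.2% at 100 to 200, 14.4% at 200 to 400 and 45.7% at 400 or more. Below 50 raw CPM they were found for 5.28% of genes at 25 to 50, 5.67% at 10 to 25 and 6.28% at 5 to 10, close to the share at 50 to 100. Among the most abundant fertile genes 91 of 199 were thus nearly lost and 3 were partly retained. These shares describe the same libraries that set the limits, and no test was made of them. Of 112 models outside the Bra set at the same fertile level, which the choice of members left out, 5 (4.46%) had ratios in the same limits.

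**Figure D2:**
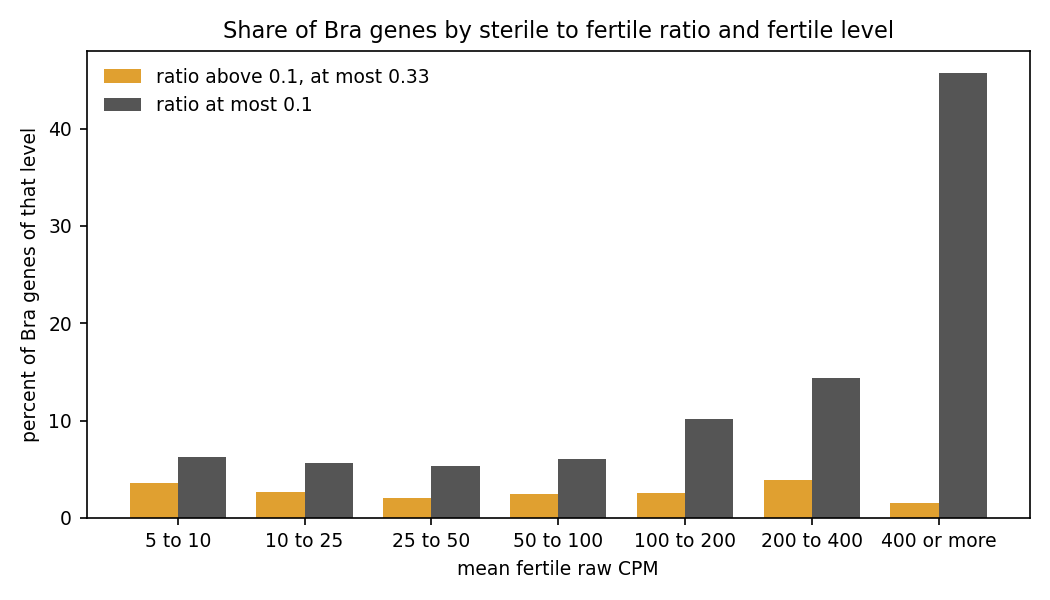
Percent of Bra genes (vertical axis) in 7 classes of mean fertile raw CPM (horizontal axis) whose sterile to fertile ratio was above 0.1 and up to 0.33 (light bars) or at most 0.1 (dark bars). The light bars stay between 1.51% (3 genes) and 3.86%, while the dark bars lie between 5.28% and 6.28% up to 100 raw CPM and reach 45.7% in the most abundant class.

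The levels of the 114 genes differed widely in both genotypes. In sterile buds their means ran from 5.70 to 213.4 raw CPM with a median of 17.3, and in fertile buds from 50.2 to 826.7 with a median of 84.5. The ratio had a median of 0.180 with quartiles of 0.128 and 0.258. In sterile buds 16 members still stood at 50 raw CPM or more, 74 lay between 10 and 50, and 24 lay below 10. The median member ranked 12710.5 among all Bra genes in sterile buds and 2274 in fertile buds. In sterile buds 16 members were among the 5000 most abundant Bra genes, whereas in fertile buds all 114 were, which the fertile limit of 50 fixes. The lowest sterile count of any member in any library was 176, for Bra023127, and the median of each member's lowest sterile count was 519.5.

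Together the members took 0.300% ± 0.00668 of the counts of sterile libraries and 1.53% ± 0.0455 of those of fertile libraries (SD, n = 3 each). By library the share was 0.300%, 0.307% and 0.294% in sterile buds and 1.58%, 1.49% and 1.51% in fertile buds. The neighbouring class of 142 abundant Bra genes with ratios above 0.01 and up to 0.1 took 0.133% to 0.152% of sterile counts and 4.03% to 4.06% of fertile counts. The members were thus the lighter class in fertile buds and the heavier one in sterile buds. Both classes were set by ratio on these same libraries, so nothing is read from this change of order. Median levels of the neighbouring class and of the members were 117.0 and 84.5 raw CPM in fertile buds. In sterile buds they were 4.78 and 17.3.

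The most abundant member was Bra003840, with a coding length of 1521 nt. It had 209.6, 214.5 and 216.1 raw CPM in sterile libraries and 833.6, 791.5 and 855.1 in fertile libraries, a sterile mean 3.87-fold lower. Even so, it ranked 580 among all Bra genes of sterile buds. Bra010198 (1185 nt) followed with 123.3, 116.6 and 120.6 raw CPM in sterile buds against 630.0, 616.5 and 591.9 in fertile buds. Bra018160 (1761 nt) had 60.1, 73.9 and 68.3 raw CPM in sterile buds against 562.1, 524.5 and 566.4 in fertile buds, which at 8.17-fold lower was the largest fall among the 10 most abundant members. In all 3 genes the libraries of a genotype lay close together. Their distance from those of the other genotype was set by the choice of members.

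The other 7 of the 10 most abundant members stood at 295.6 to 373.4 raw CPM in fertile buds. Bra033967, Bra007991 and Bra016955 had sterile means of 59.4, 56.5 and 55.0 raw CPM, at ratios of 0.159, 0.156 and 0.168. Bra008662, Bra025082, Bra024449 and Bra020472 kept more, with 92.4, 75.3, 80.3 and 62.0 raw CPM in sterile buds at ratios of 0.260, 0.214, 0.246 and 0.210. Among the 10 most abundant members the ratio thus ran from 0.122 to 0.260, close to the quartiles of all 114. Beyond these 10, the highest sterile levels were those of Bra023384 (71.1 ± 4.37 raw CPM), Bra002849 (60.2 ± 5.43), Bra031935 (59.5 ± 4.81), Bra013442 (55.8 ± 2.08) and Bra011869 (50.9 ± 5.93; SD, n = 3 each), at ratios from 0.285 to 0.327.

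**Figure D3:**
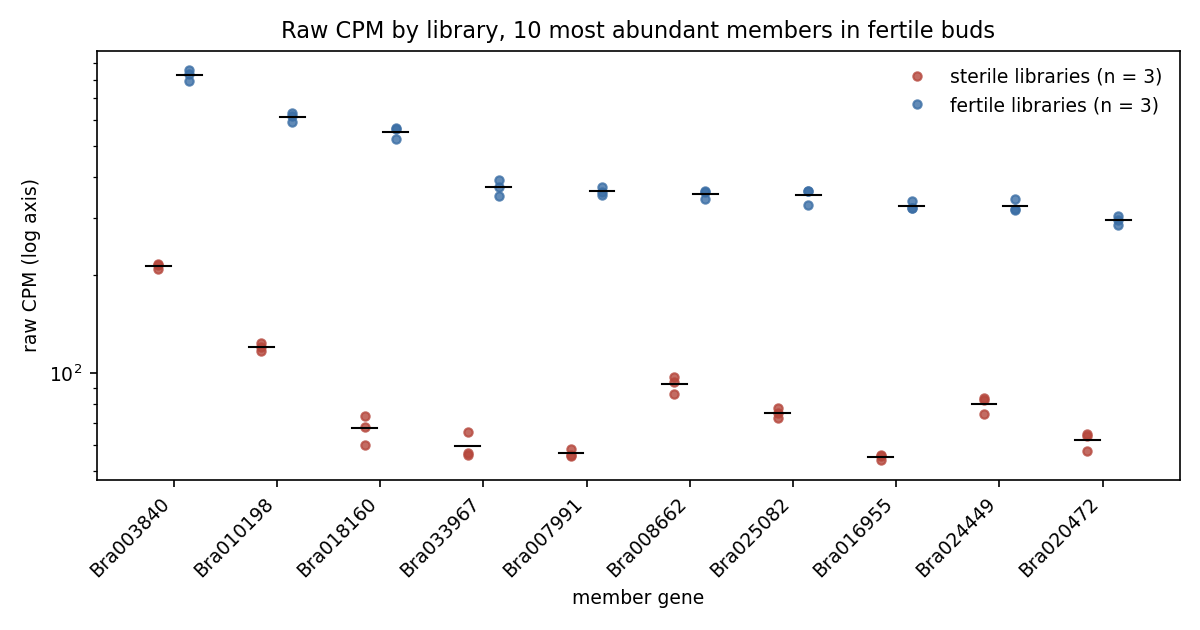
Raw CPM (vertical axis, log scale) of the 10 members most abundant in fertile buds, with 1 point per library, sterile libraries left of fertile ones and a line at each mean. Every sterile library lies below every fertile library in all 10 genes, with sterile means from 55.0 to 213.4 raw CPM and fertile means from 295.6 to 826.7.

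Levels were also compared between genes per length, as RPKM (counts divided by model length and by library total). Members had a median of 13.9 RPKM in sterile buds and 78.1 RPKM in fertile buds. The highest was Bra025082, a short model of 462 nt, with 162.9 ± 6.09 RPKM in sterile buds and 762.5 ± 43.0 RPKM in fertile buds (SD, n = 3 each). Bra003840, first by raw CPM, was second per length at 140.3 ± 2.22 RPKM in sterile and 543.5 ± 21.3 RPKM in fertile buds. The 10 highest by raw CPM and the 10 highest by RPKM shared 6 genes. Those entering per length were Bra031935 (540 nt), Bra011869 (489 nt), Bra010977 (717 nt) and Bra041148 (600 nt), at 386.5, 318.2, 271.2 and 309.4 RPKM in fertile buds, and the next was Bra024606 (981 nt) at 255.0 RPKM. The mean of Bra041148 rested on fertile replicate 1, at 882.4 RPKM against 20.1 and 25.7 in fertile replicates 2 and 3.

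**Figure D4:**
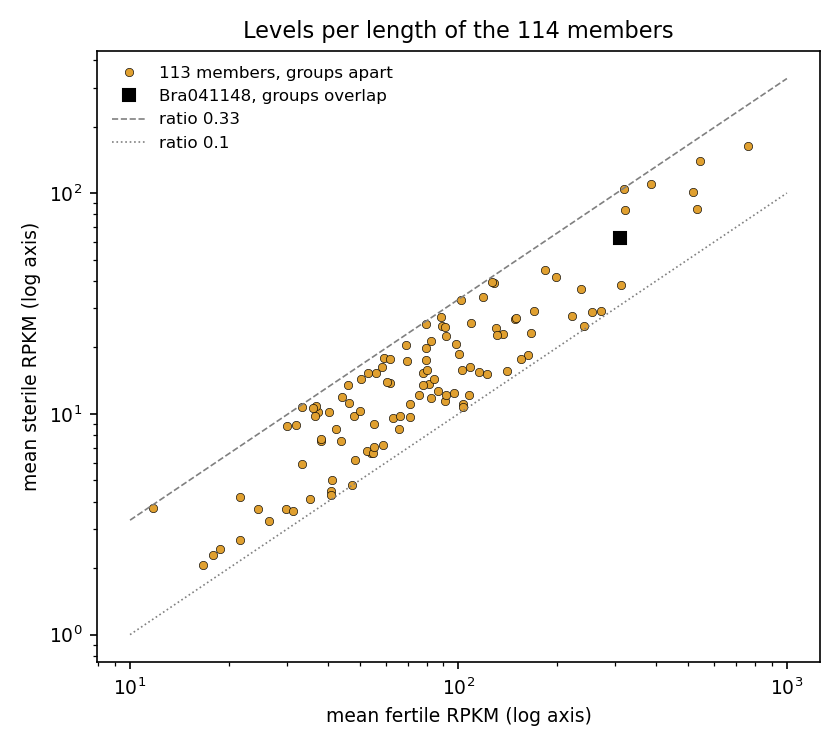
Mean RPKM in sterile buds (vertical axis, log scale) against mean RPKM in fertile buds (horizontal axis, log scale) for the 114 members, with lines at ratios of 0.33 and 0.1. The points span 2.07 to 162.9 RPKM in sterile buds and 11.7 to 762.5 RPKM in fertile buds; the square is Bra041148, whose libraries overlap between genotypes.

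How much of its fertile level a member kept showed little relation in rank to how abundant or how long it was. Across the 114 genes, which share the same 6 libraries, Spearman's rho of the ratio was 0.01 with fertile raw CPM and 0.05 with coding length. These are descriptions within a range of ratios that the choice of members had narrowed, and the fertile level is also the denominator of the ratio. The median ratio was 0.162 for the 65 members at 50 to 100 raw CPM in fertile buds and 0.189 for the 31 at 100 to 200. It was 0.210 for the 15 at 200 to 400 and 0.196 for the 3 at 400 to 1000. By ratio, 40 members lay above 0.1 and up to 0.15, 26 up to 0.2, 16 up to 0.25 and 32 up to 0.33. In that order their median levels were 9.82, 13.7, 31.7 and 21.0 raw CPM in sterile buds, and 81.6, 84.3, 148.3 and 75.2 raw CPM in fertile buds.

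Coding length was not used in the choice. Members had a median of 1417.5 nt, with quartiles of 899.25 and 2083.5, and 45.6% exceeded 1500 nt. For all 4458 abundant Bra genes, of which 4457 had a length, the median was 1200 nt and 36.1% exceeded 1500 nt. The 142 abundant genes with ratios above 0.01 and up to 0.1 had a median of 1185 nt, the 74 with ratios above 0.33 and up to 0.5 one of 1503 nt, and the 3762 with ratios above 0.5 and up to 2 one of 1204.5 nt. The difference in length was not tested, since genes are not replicates. The shortest member, Bra014464 (282 nt), had 7.52, 8.17 and 7.85 raw CPM in sterile buds against 63.1, 58.1 and 66.8 in fertile buds. The longest, Bra030229 (7560 nt), had 14.7, 17.8 and 14.5 raw CPM in sterile buds against 135.5, 126.0 and 117.7 in fertile buds. At ratios of 0.125 and 0.124 the shortest and the longest member fell by nearly the same factor.

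Members were scattered over the identifier numbers. No member stood next to another, and none lay within 3 numbers of another. Of the 175 tested Bra genes with a number directly beside a member's, 27 (15.4%) had less transcript in sterile buds by 2-fold or more (edgeR, adjusted p under 0.05), against 13.9% of all 31176 Bra genes tested. Their median log2 fold change was -0.03 with TMM factors (the trimmed mean of M values, which adjusts library totals for composition), against 0.01 for all Bra genes tested. Whether the numbers follow the order of genes in the genome was not tested, and no positions are given in the files.

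Levels of nearly all members were close between libraries of a genotype. On TMM-scaled CPM the coefficient of variation over 3 libraries had a median of 5.79% in sterile buds and 3.66% in fertile buds. On raw CPM the medians were 5.92% in sterile and 3.97% in fertile buds. All other coefficients are on the TMM-scaled values. The coefficient was at most 10% for 102 members in sterile buds and 112 in fertile buds. It was higher in sterile than in fertile libraries for 83 members. Counting error alone would give medians of 4.21% in sterile and 1.97% in fertile libraries, because the sterile counts were smaller. For the 56 members between the quartiles of sterile level the sterile median was 5.52%, and for 7256 other Bra genes of the same sterile level with ratios above 0.5 and up to 2 it was 5.01%. In single pairs of a sterile and a fertile library, between 101 and 111 of the 114 members had ratios within the limits, with median ratios from 0.172 to 0.188. Members were chosen on the means of these same libraries, which nearly fixes these counts, so nothing is read from them.

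**Figure D5:**
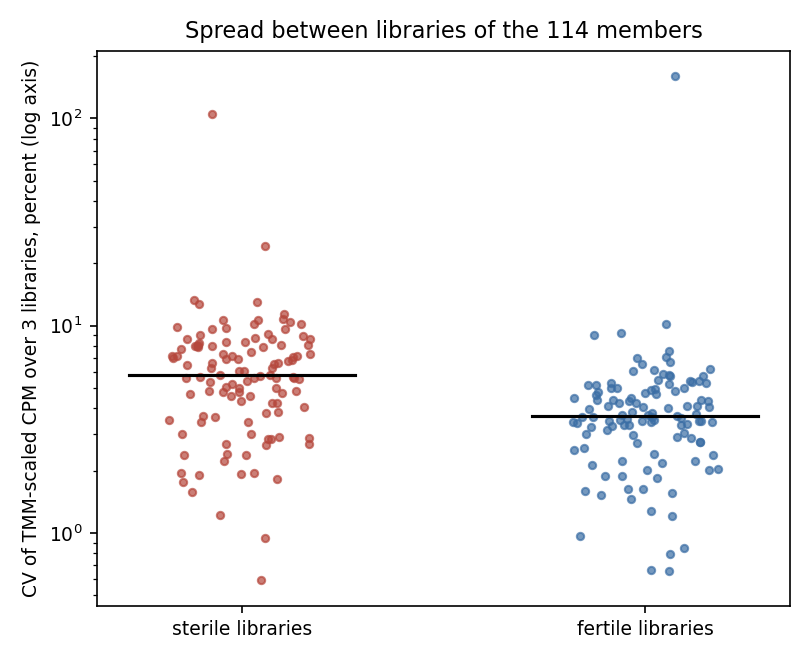
Coefficient of variation of TMM-scaled CPM over 3 libraries in percent (vertical axis, log scale) for each of the 114 members, in sterile libraries (left) and fertile libraries (right), with a line at each median. The medians are 5.79% and 3.66%, and the single point far above the rest on each side, at 105.1% in sterile and 160.3% in fertile libraries, is Bra041148.

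One member did not behave like the others. Bra041148 had 14.4, 83.1 and 14.6 raw CPM in sterile libraries and 529.4, 12.0 and 15.4 in fertile libraries, so that the genotypes overlapped. Sterile replicate 2 and fertile replicate 1 were high and the other 4 libraries were at like low levels. Without fertile replicate 1 its fertile mean was 13.7 raw CPM and its sterile to fertile ratio 2.72, so its place among the members rested on that library. A second gene was likewise highest in fertile replicate 1 and next highest in sterile replicate 2: Bra041155 (396 nt) had 2.35, 6.72 and 2.68 raw CPM in sterile buds against 140.1, 1.56 and 1.94 in fertile buds. Bra041155 is no member and was picked after its values were seen. Counting identifiers of at least 10 raw CPM in a library that were also at least 5 times higher there than in either other library of the genotype gave 2 in sterile replicate 2 (Bra041148 and Bra040490), 3 in fertile replicate 1 (Bra041148, Bra041155 and Bra021037) and 0 in each of the other 4 libraries.

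Apart from Bra041148 the least even members varied much less. Bra037731 had 34.6, 52.2 and 34.3 raw CPM in sterile libraries against 142.9, 162.3 and 138.9 in fertile libraries, and replicate 2 was the highest in each genotype. Its coefficient of variation in sterile libraries was 24.2% on TMM-scaled CPM. On the same scale Bra020712 came next in sterile libraries at 13.3%, and in fertile libraries Bra007360 and Bra039939 varied by 10.2% and 9.19%. For the 113 members other than Bra041148 every sterile library lay below every fertile library, as was so for 21.1% of all genes tested; a ratio limit of 0.33 on the same libraries nearly fixes this count. Their lowest fertile library was at least 2.58 times their highest sterile library, with the smallest gap in Bra011869 and a median of 5.17 times. The limits on the ratio of the means largely set these gaps too, so nothing is read from their size. Leaving out Bra041148 changed the members' share of counts to 0.298%, 0.299% and 0.293% in sterile libraries and 1.53%, 1.49% and 1.51% in fertile libraries.

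The limits cut through a continuous range of ratios. Just inside the upper limit were Bra011869, Bra021043 and Bra000060 at 0.327, 0.322 and 0.320, and just outside it Bra039235, Bra024530 and Bra024775 at 0.331, 0.336 and 0.338. Just inside the lower limit were Bra023127, Bra028848 and Bra020712 at 0.101, 0.104 and 0.104, and just outside it Bra033714, Bra024619 and Bra001110 at 0.0985, 0.0970 and 0.0968. At the fertile limit, Bra021144 and Bra026760 stood at 50.2 and 50.9 raw CPM, and Bra000132 and Bra027171 were left out at 49.2 and 48.7 raw CPM. When each library in turn was left out of the choice, 105 of the 114 remained members every time.

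In the comparison of sterile with fertile buds over all genes, 33.3% of the 33150 genes tested were lower in sterile buds (quasi-likelihood test of edgeR, p under 0.05 after Benjamini-Hochberg adjustment) and 15.1% were lower by at least 2-fold. These are with TMM scaling, which called 11027 genes lower; library size alone, the scale on which members were chosen, called 6854 and upper-quartile factors 7988. All 114 members were tested and all 114 were among the genes at least 2-fold lower, but the choice of members used these very libraries, so nothing is read from that count. Every sterile library lay below every fertile library in 113 members and in 21.1% of all genes tested. With limma on log2(RPKM + 1) of the authors' RPKM table, 113 members were lower, all but Bra041148, beside 19.9% of 30204 genes tested.

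The members' median log2 fold change was -2.78 with TMM scaling, within a range of -3.61 to -1.92, and the median of all genes tested was 0.00. Scaling to library size alone, as raw CPM does, moved the median of all genes to 0.31 and that of the members to -2.48. Such factors shift all genes by nearly the same amount, so the members' distance from the median of all genes could hardly change. Choosing by TMM-scaled CPM in place of raw CPM would have given 143 genes, 94 of them among the 114. The 20 members lost that way had TMM-scaled ratios of 0.1 or less. Of the 49 genes gained, 38 had raw ratios above 0.33 and 15 had fertile levels below 50 raw CPM, 4 of them both.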

How the data were processed

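Read counts per gene, deposited by the authors as raw whole numbers per the file headers, and RPKM values deposited by the authors in a second table, were used for 6 libraries (12 columns). The submitters' processing notes list Bowtie2 2.0.6 and TopHat2 2.0.9 without a role, and the sources used here state no read counter, strand setting, genome build or annotation. Reads of overlapping, antisense or near-identical genes therefore cannot be told apart, and B. rapa has many duplicated genes.

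The members and lists were chosen with earlier results of these data known. Genotype labels gave the groups. Raw CPM is the count divided by the library total; coefficients of variation used CPM scaled by TMM factors. Coding lengths were recovered from count and RPKM; all 114 were multiples of 3. In R 4.3.3, edgeR 4.0.16 (filterByExpr, TMM, glmQLFit, glmQLFTest) tested all genes without a replicate term, and limma 3.58.1 (trend) tested log2(RPKM + 1) where 3 libraries had RPKM of 1 or more, which understates changes of low genes. The genes named were the members leading by fertile raw CPM, fertile RPKM, sterile raw CPM or spread, the extremes of length and those at the limits; exceptions are marked in the text. Lists of tapetum, pollen, other organ and carpel markers were not tested, since no identifier among the members has a name. Alternatives were other scalings, DESeq2 1.42.0, no filter, a replicate block, other limits and leaving out libraries. At totals of 27637426 to 35564895 counts, counting error alone would give the members median coefficients of 4.21% in sterile and 1.97% in fertile libraries. Nothing in the labels speaks of molecular identifiers.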

Additional observations from a re-analysis of the deposited data

How the results depend on the processing

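The number of members was 209 with a fertile limit of 25 raw CPM, 49 with one of 100 and 188 with ratios up to 0.5, by construction of wider or narrower limits; it was 143 with TMM-scaled CPM, 112 with group medians, and between 113 and 116 without any single library. Over all genes, 6854 were lower with library size alone against 11027 with TMM, the median of all genes moving by 0.31; upper-quartile factors gave 7988, and 10431 to 10870 on leaving out single libraries. Genes at least 2-fold lower numbered 4364 to 5931 over all alternatives run, against 4996, and genes lower in RPKM 5790 to 7623, against 6011. The members' share of counts differed by -1.23 percentage points between sterile and fertile libraries, by -1.25 to -1.20 without any single library, and by -1.21 without Bra041148, an alternative chosen after seeing the data. The choice of members on these same libraries nearly fixes their direction and call, so nothing is read from how many kept both. Of 30 named members, 29 had the same direction and call under every alternative with a value. The exception was Bra041148, at a log2 fold change of -2.61: leaving out single libraries gave -3.96 to 1.12, the last without fertile replicate 1 (edgeR adjusted p = 0.057), and the call ended at -1.10 with the replicate block (0.34) and at -2.23 without sterile replicate 1 (0.055); DESeq2 gave it no adjusted p. Its adjusted p ranged from 0.0016 to 0.34 over the alternatives. Same-numbered libraries correlated in their deviations at 0.047, -0.093 and 0.208, and differently numbered ones at -0.180 to 0.128. Libraries were not treated as pairs, since nothing in the labels says that a number marks a shared batch or day. The replicate block gave 11254 genes lower in all, 4995 by 2-fold or more, and 6027 by RPKM. Marker lists were not run. The lowest sterile count of any member was 176, and whether depth limits any direction was not tested.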
